A study of Homo sapiens with 12 samples.

Results

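The SLC25 carriers were taken as every gene of the count table whose symbol is SLC25A followed by a number, which gave 48 of the 25369 genes listed. They were measured by poly(A)+ RNA-seq in 3 established human cancer cell lines, namely RKO (colon carcinoma), A549 (lung adenocarcinoma) and H460 (large cell lung carcinoma). Each line was kept in normoxia or moved to hypoxia (1% O2) for 24 h, with 2 replicates in each of the 6 groups, so that there were 12 libraries. The labels name no transgene, deletion or drug in any group. RKO and A549 cells grew in DMEM and H460 cells in RPMI, so a difference between H460 and the other lines cannot be told apart from one between media. The comparisons ask which carriers change their RNA level after 24 h of hypoxia, and whether the 3 lines change the same ones.

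The SLC25 family is the largest group of solute transporters in human cells. Most members sit in the inner mitochondrial membrane, are built from 3 repeats of the same fold, and exchange 1 solute of the matrix for another of the cytosol. They move ADP and ATP, phosphate, citrate, malate, aspartate, glutamate, ornithine, acylcarnitines, nucleotides, coenzyme A, folate, iron and glutathione, and so tie respiration to the metabolism of the cytosol. In hypoxia, cells stabilise the HIF transcription factors, turn to glycolysis and lower the use of the respiratory chain that these carriers feed.

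Library totals ran from 27350424 to 41757584 counted reads, and the 48 members held between 0.215 and 0.312% of the reads of a library. The 6 listed hypoxia markers (CA9, VEGFA, PDK1, EGLN3, ADM and SLC2A1) served as a check of the treatment, and all 5 that were tested in RKO rose, as did 5 of 6 tested in A549 and 6 of 6 tested in H460. CA9, the carbonic anhydrase that HIF switches on, went from 3.72 and 1.86 CPM to 54 and 73 CPM in RKO. Lineage markers were sparse, as the summed level of 8 lung markers was at most 5.58 CPM in any library, CDX2 of the colon was at 15.1 and 15.5 CPM in normoxic RKO, and CDH1 of epithelia was under the detection filter in RKO. Of 8 markers of blood, stromal and endothelial cells, 2 rose in RKO (COL1A1 and VWF), 1 in A549 (COL1A1) and 1 in H460 (CD68). The list summed to 434 to 640.0 CPM across RKO libraries, 193 to 571 across A549 and 41.9 to 74.7 across H460, and its part in the results below was not tested. CD68 made up most of it in RKO, with means of 455 CPM in normoxia and 603 CPM in hypoxia, and CD68 and COL1A1 most of it in A549. PTPRC, CD3E and DCN were at 0 in every RKO library and at no more than 3 reads in any other.

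Printed CPM values are TMM-scaled counts of a gene relative to the library total. A gene entered the test in a line when it was above 0.5 CPM, without the TMM scaling, in at least 2 of the 4 libraries. By this filter 40 members were tested in RKO, 41 in A549 and 41 in H460, and 39 were tested in all lines. The members that reached the filter in no line were SLC25A2 (ornithine), SLC25A31 (the ADP/ATP carrier of testis), SLC25A47 (a carrier of liver), SLC25A48, SLC25A52 and SLC25A6. SLC25A48 had 0 reads in every library, and 3 reads correspond to between 0.0714 and 0.127 CPM, which is the most that a count of 0 allows. No level can be read for SLC25A6, the ubiquitous ADP/ATP carrier. It lies in the pseudoautosomal region, where the X and Y copies are identical, and all 15 pseudoautosomal genes looked up were at 0 in every library after the removal of reads with low mapping quality. SLC25A5, SLC25A3 and SLC25A51 have close copies in the genome, so part of their reads may have been lost in the same step.

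Calls needed both an adjusted p under 0.1 and a change of more than 1.5-fold. In RKO 8 members rose and 10 fell among the 40 tested, beside 18.8% of all genes rising and 15.1% falling. H460 had 4 members that rose and 16 that fell among 41, where 24.6% of all genes rose and 27.3% fell. A549 had 0 members that rose and 1 that fell among 41, against 2.22% and 0.456% of all genes. In A549 an unadjusted p under 0.05 was reached by 5 members toward higher and 9 toward lower levels. The share of all genes at that unadjusted p was not counted, here or for the gene lists below. In the same line DESeq2 called 2 higher and 1 lower (4.27% and 1.85% of all genes). The fit with the replicate number as a block called 3 higher and 6 lower (8.34% and 5.07%). Without A549 hypoxia replicate 1, which stood nearer to normoxia than replicate 2 in several members, 2 members were called higher and 6 lower (7.7% and 5.34% of all genes). Without normoxia replicate 2 the counts were 1 and 2 (2.33% and 0.822%), and without hypoxia replicate 2 they were 0 and 0 (1.2% and 0.484%). In bulk RNA, less RNA per cell and fewer cells of a kind cannot be told apart.

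The members had a median log2 fold change of -0.21 (RKO), -0.17 (A549) and -0.08 (H460), beside 0.01, -0.01 and -0.04 for all tested genes. Both hypoxic libraries lay below both normoxic ones for 17 of 40 members in RKO (31.6% of all genes), 21 of 41 in A549 (23.9%) and 20 of 41 in H460 (43.9%). Both lay above for 13 (38.9%), 10 (26%) and 15 members (42.4%). Among the 39 members tested everywhere, 7 fell in both RKO and H460 (9.21% of all genes) and 3 rose in both (8.68%). Calls in opposite directions were found for 2 members (2.86%), and 15 members were called in no line (37.2%). Over the lines, 8 members rose in at least 1 (32.7%) and 3 in at least 2 (9.22%), while 18 fell in at least 1 (33%) and 8 in at least 2 (9.37%). No member was called in the same direction in all lines, where 0.977% of all genes rose and 0.109% fell.

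**Figure D1:**
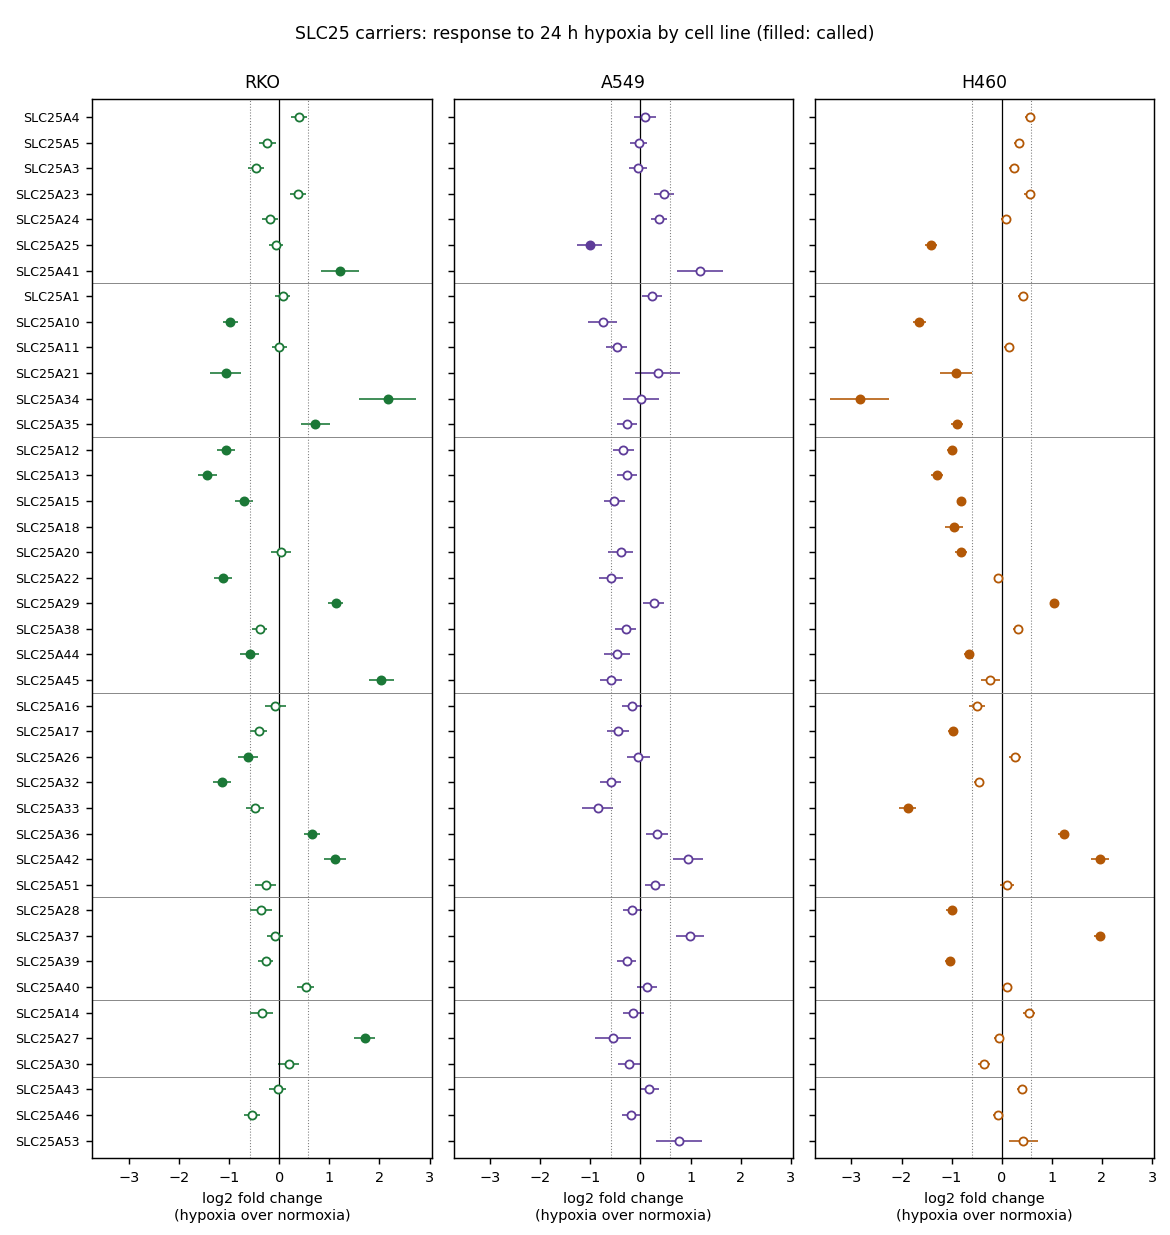
Log2 fold change of tested SLC25 members after 24 h of hypoxia (x axis) in RKO, A549 and H460, with the standard error as a bar and the role groups set apart by horizontal lines. Filled points were called, the dotted lines mark a 1.5-fold change, and SLC25A34 in H460 (-2.83, from few reads) is the lowest point drawn.

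Promoters of 3 members that moved the same way in RKO and H460 are shown because the core letters that HIF binds are known. RefSeq promoters (GRCh38.p14) were found for 40 of the 48 members, with 51 promoters in all, and the 250 bases before the start were searched on both strands for ACGTG and GCGTG. The capitals mark these letters or their reverse complements, and the plus or minus strand of the gene is given with the position. The promoters of SLC25A36 and SLC25A42, which rose, and of SLC25A12, which fell, read 5′ to 3′ as follows.
SLC25A36, chr3:140941586-140941835, plus strand: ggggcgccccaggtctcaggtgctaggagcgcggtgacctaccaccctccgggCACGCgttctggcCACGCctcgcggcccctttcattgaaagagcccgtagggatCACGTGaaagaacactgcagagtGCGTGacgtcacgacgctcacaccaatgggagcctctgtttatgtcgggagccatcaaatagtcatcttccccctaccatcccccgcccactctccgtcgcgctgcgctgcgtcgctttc
SLC25A42, chr19:19063744-19063993, plus strand: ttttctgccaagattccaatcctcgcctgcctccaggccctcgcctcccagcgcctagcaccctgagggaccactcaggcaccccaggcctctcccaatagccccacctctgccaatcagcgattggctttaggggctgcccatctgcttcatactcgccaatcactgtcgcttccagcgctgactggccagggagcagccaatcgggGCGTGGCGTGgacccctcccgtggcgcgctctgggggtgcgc
SLC25A12, chr2:171894245-171894494, minus strand: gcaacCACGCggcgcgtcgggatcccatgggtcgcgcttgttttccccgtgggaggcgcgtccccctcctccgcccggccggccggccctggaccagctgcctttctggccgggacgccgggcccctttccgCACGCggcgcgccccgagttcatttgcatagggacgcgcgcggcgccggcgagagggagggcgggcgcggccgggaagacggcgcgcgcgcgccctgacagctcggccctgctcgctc
SLC25A36 held 2 matches of ACGTG and 3 of GCGTG, the former being the 2 strands of a single CACGTG, which reads the same on both. SLC25A42 and SLC25A12 each held 2 matches of GCGTG and 0 of ACGTG, so such matches were present in a member that fell as well as in those that rose. Either motif was found in 40 of the 51 member promoters (78.4%) and in 43.2% of all 35116 promoters of the table, and CACGTG in 8 (15.7%) and 6.34%. The promoters were not matched for base composition, and a match is only a description of the letters.

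The carriers of ADP, ATP and phosphate hold the most abundant members, and SLC25A5, SLC25A3 and SLC25A4 were called in no line. SLC25A5, which exchanges ADP for ATP in dividing cells, and SLC25A3, the phosphate carrier for ATP synthesis, made up 40.2 to 55.9% of the summed RPKM of the family in each library. These sums hold nothing for SLC25A6, whose level could not be read. SLC25A5 had 476 and 427 CPM in normoxia and 440.2 and 361 CPM in hypoxia in RKO, and the log2 fold change was -0.24 ± 0.17 SE, adjusted p = 0.287. In H460 it had 665 and 614 CPM in normoxia and 842 and 797 CPM in hypoxia (log2 fold change 0.34 ± 0.09 SE, adjusted p = 0.00646). The higher value in hypoxic H460 depended on the scaling of the libraries, because with the library size alone the direction turned, and the fold was below the 1.5 threshold in each line. SLC25A3 had log2 fold changes of -0.47 in RKO, -0.05 in A549 and 0.24 in H460, none of them called, and in H460 its direction too turned with the library size alone. SLC25A4, the ADP/ATP carrier of heart and muscle, had 24.4 and 22.3 CPM in normoxia and 35.3 and 34.4 CPM in hypoxia in H460 (log2 fold change 0.56 ± 0.10 SE, adjusted p = 0.000329), which also stayed under the fold threshold.

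The ATP-Mg/phosphate carriers adjust the adenine nucleotide content of the matrix, 3 of them under the control of calcium. SLC25A25 (chr9:130830479-130871537, plus strand on GRCh37) fell in A549 and H460. Its levels were 29.5 and 27.7 CPM in normoxia and 11.6 and 10.1 CPM in hypoxia in H460, and the log2 fold change was -1.41 ± 0.12 SE, adjusted p = 7.71e-07. In A549 they were 15.7 and 20.9 CPM in normoxia and 10.03 and 8.26 CPM in hypoxia (log2 fold change -1.01 ± 0.25 SE, adjusted p = 0.099). This A549 call was lost in 7 of 17 alternatives, among them those without A549 normoxia replicate 2 or hypoxia replicate 2. RKO libraries overlapped, with 70.8 and 75 CPM in normoxia and 76.1 and 69.4 CPM in hypoxia, and the difference of the hypoxia effect between RKO and H460 was 1.39 ± 0.24 SE, adjusted p = 0.000761. As a share of the summed RPKM of the 4 carriers of this set, SLC25A25 went from 26.4 and 25.4% to 10.5 and 8.47% in H460 and from 12.1 and 15.6% to 6.49 and 4.88% in A549. SLC25A41, the form without calcium control, rose in RKO from low levels (0.717 and 1.23 CPM to 2.09 and 2.61 CPM, log2 fold change 1.21 ± 0.38 SE, adjusted p = 0.0281) and stayed under the filter in H460. In A549 SLC25A41 had a similar log2 fold change, also from low levels, but was not called (1.19 ± 0.46 SE, adjusted p = 0.248). Both hypoxic A549 libraries lay above both normoxic ones. SLC25A23 had log2 fold changes of 0.38, 0.47 and 0.55 in RKO, A549 and H460, and SLC25A24 had -0.18, 0.37 and 0.08, none of them called.

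Carriers of di- and tricarboxylates shuttle the intermediates of the citric acid cycle. Among 6 members, 2 rose and 2 fell in RKO (18.8% and 15.1% of all genes), and 4 fell in H460 (27.3%). The group includes the orphan carriers SLC25A34 and SLC25A35, which were the members that rose in RKO and were among those that fell in H460. SLC25A10 (chr17:79679266-79688046, plus strand), which exchanges malate and succinate for phosphate, fell in both lines. It went from 87.9 and 87.9 CPM to 45.6 and 47.5 CPM in RKO (log2 fold change -0.98 ± 0.15 SE, adjusted p = 0.000776) and from 23.7 and 22.2 CPM to 7.68 and 7.16 CPM in H460 (log2 fold change -1.65 ± 0.13 SE, adjusted p = 3.27e-07). A549 showed 59.5 and 37.8 CPM in normoxia and 35.4 and 22.7 CPM in hypoxia, where both hypoxic libraries were below both normoxic ones but the spread within each pair was wide (log2 fold change -0.76 ± 0.28 SE, adjusted p = 0.238). It was called there in the blocked fit (adjusted p = 0.00121) and without A549 normoxia replicate 2 or hypoxia replicate 1. SLC25A21, the oxodicarboxylate carrier, fell in RKO (log2 fold change -1.07 ± 0.31 SE, adjusted p = 0.0199) and in H460 (log2 fold change -0.92 ± 0.32 SE, adjusted p = 0.0213) from normoxic levels of only 3.59 and 4.14 CPM and 1.91 and 1.38 CPM. The call in RKO was lost without normoxia replicate 2, and that in H460 without normoxia replicate 1 or hypoxia replicate 1. In contrast, SLC25A1, which exports citrate for lipid synthesis, and SLC25A11, the oxoglutarate/malate carrier of the malate-aspartate shuttle, were not called in any line, with log2 fold changes between -0.47 and 0.43.

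SLC25A34 and SLC25A35, a related pair of orphan carriers, were the members called in opposite directions. SLC25A35 had 4.94 and 7.63 CPM in normoxia and 8.82 and 12.7 CPM in hypoxia in RKO and 29.5 and 32.9 CPM in normoxia and 15.1 and 18.7 CPM in hypoxia in H460. It rose in RKO (log2 fold change 0.72 ± 0.29 SE, adjusted p = 0.0698) and fell in H460 (log2 fold change -0.89 ± 0.13 SE, adjusted p = 5.33e-05), and the effects differed by 1.66 ± 0.32 SE, adjusted p = 0.00191. The RKO call was lost without normoxia replicate 1 or hypoxia replicate 2 (highest adjusted p = 0.41). SLC25A34 was read at very low depth. In H460 the libraries held 35 reads in normoxia and 4 in hypoxia, a 7.37-fold lower level with an exact 95% counting interval of 2.63 to 28.5. RKO held 28 and 130 reads, a 4.61-fold higher level with an interval of 3.04 to 7.2, and these intervals cover counting error only. The quasi-likelihood test gave adjusted p = 0.0129 in RKO and 0.0010 in H460.

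Members that carry amino acids and acylcarnitines counted 2 that rose and 5 that fell of 9 tested in RKO (18.8% and 15.1% of all genes), and 1 that rose and 6 that fell of 10 in H460 (24.6% and 27.3%). The aspartate/glutamate carriers SLC25A12 (aralar) and SLC25A13 (citrin), which bring the reducing power of cytosolic NADH into mitochondria through the malate-aspartate shuttle, fell together in both lines. SLC25A13 (chr7:95749532-95951459, minus strand) went from 73.6 and 74.9 CPM to 23.8 and 33.5 CPM in RKO (log2 fold change -1.43 ± 0.19 SE, adjusted p = 0.000398). Its H460 levels went from 53.7 and 60.9 CPM to 21.2 and 25.8 CPM (log2 fold change -1.3 ± 0.12 SE, adjusted p = 1.2e-06). SLC25A12 (chr2:172639915-172750816, minus strand) went from 46.1 and 44.2 CPM to 20.4 and 24.8 CPM in RKO (log2 fold change -1.06 ± 0.18 SE, adjusted p = 0.00122) and from 43.5 and 45.4 CPM to 21.9 and 23.3 CPM in H460 (log2 fold change -0.99 ± 0.10 SE, adjusted p = 2.4e-06). The groups did not overlap for either gene in those lines, nor in A549, where neither gene was called. SLC25A13 moved less in A549, where it had 62.8 and 55.4 CPM in normoxia and 54.9 and 44 CPM in hypoxia (log2 fold change -0.27 ± 0.19 SE, adjusted p = 0.523), and its effect was lower in RKO than in A549 by a log2 difference of -1.12 ± 0.25 SE, adjusted p = 0.0173. For A549 against H460 the difference of effects was 1.02 ± 0.25 SE, adjusted p = 0.00924. The log2 fold change of SLC25A12 in A549 was -0.34. Their ratio changed less than their levels, as SLC25A12 held 33.3 and 32% of the pair in normoxic RKO and 40.6 and 37.2% in hypoxic RKO.

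SLC25A15, the ornithine carrier of the urea cycle, fell in RKO (39.5 and 47 CPM in normoxia and 26.1 and 29.3 CPM in hypoxia, log2 fold change -0.70 ± 0.17 SE, adjusted p = 0.00936) and in H460 (64.1 and 61.1 CPM in normoxia and 36.1 and 36.3 CPM in hypoxia, log2 fold change -0.81 ± 0.09 SE, adjusted p = 7.33e-06). SLC25A44, which carries branched-chain amino acids, fell by less in RKO (53.2 and 63.7 CPM in normoxia and 34.2 and 46.8 CPM in hypoxia, log2 fold change -0.59 ± 0.19 SE, adjusted p = 0.0324) and in H460 (43.3 and 38.8 CPM in normoxia and 26.8 and 25.9 CPM in hypoxia, log2 fold change -0.65 ± 0.10 SE, adjusted p = 9.16e-05). For both genes the RKO call did not hold without RKO normoxia replicate 2 or hypoxia replicate 1. Over all 17 alternatives run in RKO, the call was lost in 4 for SLC25A15 and in 9 for SLC25A44, which was just past the fold threshold. SLC25A22, a glutamate carrier, fell in RKO from 59.96 and 77.6 CPM to 31.6 and 34.3 CPM (log2 fold change -1.12 ± 0.18 SE, adjusted p = 0.000916) and was not called in H460, with 33.8 and 32.5 CPM in normoxia and 32.8 and 31.2 CPM in hypoxia (log2 fold change -0.07 ± 0.09 SE, adjusted p = 0.536). The difference of those effects was -1.01 ± 0.28 SE, adjusted p = 0.0143. Its close relative SLC25A18 passed the filter in H460 alone, at 6.31 and 6.36 CPM in normoxia and 3.25 and 3.37 CPM in hypoxia (log2 fold change -0.95 ± 0.18 SE, adjusted p = 0.000478). The normoxic H460 mean of 6.34 CPM was at least 79.5-fold higher than 3 reads in a normoxic RKO library and at least 86.1-fold higher than 3 reads in an A549 one. SLC25A20, the carnitine/acylcarnitine carrier of fatty acid oxidation, fell in H460 (21.5 and 19 CPM in normoxia and 12.4 and 10.9 CPM in hypoxia, log2 fold change -0.81 ± 0.13 SE, adjusted p = 0.000125) and had a log2 fold change of 0.04 in RKO. SLC25A38, the glycine carrier for heme synthesis, was called in no line, at -0.39, -0.30 and 0.32 in RKO, A549 and H460.

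Against this direction, SLC25A29 and SLC25A45 rose. SLC25A29 (chr14:100757448-100772884, minus strand), the carrier of arginine, lysine and other basic amino acids, went from 39.7 and 41.3 CPM to 92.7 and 92.3 CPM in RKO (log2 fold change 1.13 ± 0.15 SE, adjusted p = 0.000386). In H460 it rose from 87.5 and 89.4 CPM to 186 and 183 CPM (log2 fold change 1.05 ± 0.08 SE, adjusted p = 4.43e-07). A549 had 30.8 and 25.4 CPM in normoxia and 32.8 and 35.3 CPM in hypoxia, where the hypoxic libraries lay just above the normoxic ones and the test was not passed (log2 fold change 0.26 ± 0.20 SE, adjusted p = 0.553). Compared with RKO, the effect in A549 was lower, with a log2 difference of 0.92 ± 0.18 SE, adjusted p = 0.0101 for RKO minus A549, and lower than in H460, with -0.79 ± 0.18 SE, adjusted p = 0.00664 for A549 minus H460. SLC25A45 (chr11:65142663-65151172, minus strand), a relative of the carnitine and ornithine carriers, rose in RKO from 3.43 and 4.29 CPM to 14.7 and 18.5 CPM (log2 fold change 2.04 ± 0.25 SE, adjusted p = 0.000262). The test was passed in neither other line, with 17.6 and 19.7 CPM in normoxia and 11.5 and 13.7 CPM in hypoxia in A549 (log2 fold change -0.58 ± 0.22 SE, adjusted p = 0.241) and 7.3 and 9.09 CPM in normoxia and 5.87 and 8.2 CPM in hypoxia in H460 (log2 fold change -0.23 ± 0.19 SE, adjusted p = 0.29). The RKO effect was above that in A549 by 2.67 ± 0.32 SE, adjusted p = 0.000472, and above that in H460 by 2.32 ± 0.33 SE, adjusted p = 0.000213. The blocked fit called SLC25A45 lower in A549 (adjusted p = 0.0357).

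**Figure D2:**
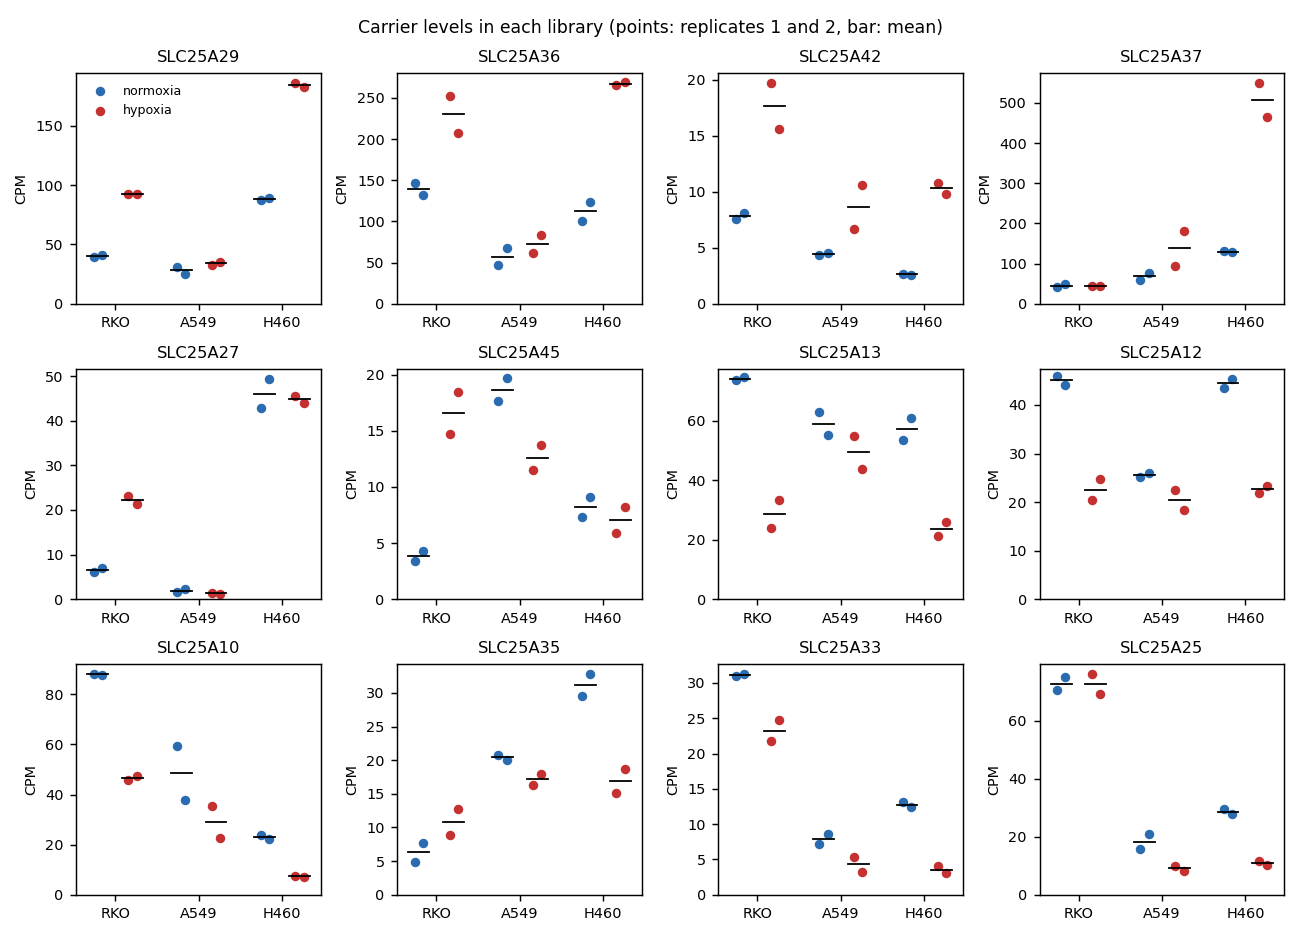
CPM (y axis, from 0) of 12 SLC25 members in each library, in normoxia (blue) and hypoxia (red) for RKO, A549 and H460, with a point per replicate and a bar at the mean. SLC25A29, SLC25A36 and SLC25A42 are higher in hypoxic RKO and H460, SLC25A27 and SLC25A45 in hypoxic RKO, and SLC25A10, SLC25A12 and SLC25A13 are lower in hypoxic RKO and H460.

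Among 9 tested carriers of nucleotides and cofactors, 2 rose and 3 fell in RKO (18.8% and 15.1% of all genes), with the same counts in H460 (24.6% and 27.3%). SLC25A42 (chr19:19174803-19223841, plus strand), which brings coenzyme A into the matrix, and SLC25A36 (chr3:140660662-140698785, plus strand), a pyrimidine nucleotide carrier, rose in both lines. SLC25A42 had 7.57 and 8.13 CPM in normoxia and 19.7 and 15.6 CPM in hypoxia in RKO (log2 fold change 1.11 ± 0.22 SE, adjusted p = 0.00287) and 2.66 and 2.58 CPM in normoxia and 10.8 and 9.84 CPM in hypoxia in H460 (log2 fold change 1.96 ± 0.17 SE, adjusted p = 8.86e-07). In A549 the hypoxic libraries were also above the normoxic ones, at 4.31 and 4.51 CPM in normoxia and 6.66 and 10.6 CPM in hypoxia, but the test was not passed (log2 fold change 0.95 ± 0.30 SE, adjusted p = 0.179). The blocked fit called it there (adjusted p = 0.00746), as did the fit without A549 hypoxia replicate 1. SLC25A36 had 147 and 132 CPM in normoxia and 252 and 208 CPM in hypoxia in RKO (log2 fold change 0.66 ± 0.16 SE, adjusted p = 0.00866), and without RKO normoxia replicate 2 or hypoxia replicate 1 this call was lost, the lowest log2 fold change then being 0.56. In H460 it had 100.2 and 124 CPM in normoxia and 265 and 269 CPM in hypoxia (log2 fold change 1.24 ± 0.11 SE, adjusted p = 8.33e-07).

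SLC25A33, the other pyrimidine nucleotide carrier, fell in H460, where SLC25A36 rose. It went from 13.1 and 12.4 CPM to 4.01 and 3.06 CPM (log2 fold change -1.87 ± 0.17 SE, adjusted p = 1.25e-06), and had 31 and 31.2 CPM in normoxia and 21.8 and 24.7 CPM in hypoxia in RKO (log2 fold change -0.48 ± 0.17 SE, adjusted p = 0.0469) and 7.12 and 8.53 CPM in normoxia and 5.41 and 3.29 CPM in hypoxia in A549 (log2 fold change -0.86 ± 0.32 SE, adjusted p = 0.233). The groups did not overlap in any line, but the RKO difference was under the fold threshold and the A549 one was called only in alternatives, such as the blocked fit (adjusted p = 0.0145) or without A549 hypoxia replicate 1. As a share of the RPKM of the pair, SLC25A36 went from 59.8 and 57.1% to 78.4 and 72.5% in RKO, from 67.3 and 71.1% to 78.2 and 88.8% in A549 and from 70.6 and 75.8% to 95.4 and 96.5% in H460. The hypoxic shares were above the normoxic ones in each line.

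SLC25A32, the carrier of folate and FAD, fell in RKO from 126 and 123 CPM to 50.05 and 67.4 CPM (log2 fold change -1.14 ± 0.17 SE, adjusted p = 0.000803), and in H460 its log2 fold change of -0.45 ± 0.10 SE, adjusted p = 0.00204, was under the fold threshold. A549 had 42 and 41.6 CPM in normoxia and 31.9 and 24 CPM in hypoxia (log2 fold change -0.59 ± 0.21 SE, adjusted p = 0.22), which was called in the blocked fit (adjusted p = 0.0113) and without A549 hypoxia replicate 1. SLC25A26, the carrier of S-adenosylmethionine, fell in RKO (log2 fold change -0.62 ± 0.20 SE, adjusted p = 0.0314) and had 0.27 in H460. SLC25A17, the peroxisomal member, which carries coenzyme A and related cofactors, fell in H460 (54.5 and 58.4 CPM in normoxia and 30.6 and 27.8 CPM in hypoxia, log2 fold change -0.97 ± 0.10 SE, adjusted p = 2.76e-06). SLC25A51, the NAD carrier, and SLC25A16, a member linked to coenzyme A, were called in no line, with log2 fold changes between -0.49 and 0.30.

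The iron carriers of mitochondria, the mitoferrins, moved apart in H460. SLC25A37 (mitoferrin 1), known from heme synthesis in red cell precursors, rose from 130.4 and 129 CPM to 548 and 465 CPM in H460 (log2 fold change 1.95 ± 0.10 SE, adjusted p = 1.51e-08), and became the third most abundant member there by RPKM. SLC25A28 (mitoferrin 2), the form of most other tissues, fell from 34.5 and 39.6 CPM to 18.6 and 18.9 CPM (log2 fold change -1.0 ± 0.11 SE, adjusted p = 5.57e-06). SLC25A37 had 59.8 and 77.4 CPM in normoxia and 93.4 and 182 CPM in hypoxia in A549 (log2 fold change 0.99 ± 0.29 SE, adjusted p = 0.15), with hypoxia replicate 2 well above replicate 1. That difference was called in the blocked fit (adjusted p = 8.57e-06), and also when A549 normoxia replicate 2 or hypoxia replicate 1 was left out. RKO stood apart from this, with overlapping values of 40.9 and 49.2 CPM in normoxia and 44.1 and 44.7 CPM in hypoxia and a log2 difference from H460 of -1.99 ± 0.34 SE, adjusted p = 0.000735. The share of SLC25A37 in the summed RPKM of the pair was 75.9 and 73.1% in normoxic and 96.1 and 95.4% in hypoxic H460. In A549 it was 65.6 and 71.4% and 77.2 and 86.3%, and in RKO 64 and 65.4% and 73.1 and 65.6%.

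SLC25A39, the glutathione carrier and the third most abundant member over all libraries, fell in H460 from 163 and 156 CPM to 81.7 and 74.9 CPM (log2 fold change -1.04 ± 0.09 SE, adjusted p = 6.82e-07). In RKO and A549 its log2 fold changes were -0.27 and -0.28, neither called, and the effects in RKO and H460 differed by 0.81 ± 0.20 SE, adjusted p = 0.00714. Its paralog SLC25A40 was not called in any line. It had 29.9 and 30.02 CPM in normoxia and 32.8 and 32.8 CPM in hypoxia in H460, and its log2 fold change in RKO (log2 fold change 0.53 ± 0.17 SE, adjusted p = 0.0317) was under the fold threshold. The share of SLC25A40 in the summed RPKM of these paralogs went from 8.6 and 8.99% to 17.1 and 18.3% in H460 and from 4.4 and 3.6% to 6.68 and 6.79% in RKO, without overlap in either line. In A549, where it was 5.04 and 6.85% in normoxia and 6.84 and 8.57% in hypoxia, the groups overlapped.

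**Figure D3:**
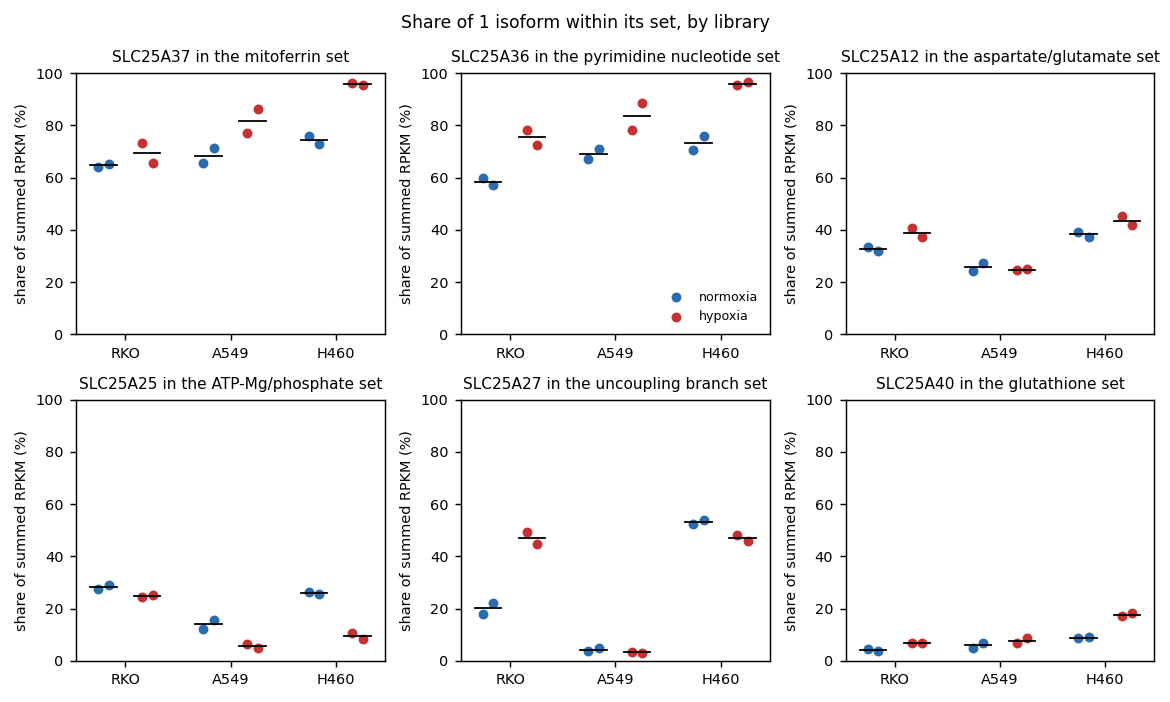
Share (%, y axis) of 1 member in the summed RPKM of its set of related carriers, per library, in normoxia (blue) and hypoxia (red), with a bar at the mean of the 2 replicates. SLC25A37 and SLC25A36 approach the whole of their pair in hypoxic H460 (96.1 and 95.4% and 95.4 and 96.5%), and SLC25A27 rises in RKO from 17.9 and 22.2% to 49.2 and 44.9%.

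In the branch of the uncoupling proteins, SLC25A27 (UCP4, chr6:46620652-46645927, plus strand), best known from neurons, rose in RKO alone among the lines. It went from 6.0 and 7.05 CPM to 23.1 and 21.4 CPM (log2 fold change 1.71 ± 0.21 SE, adjusted p = 0.000266). In A549 it had 1.67 and 2.18 CPM in normoxia and 1.44 and 1.22 CPM in hypoxia (log2 fold change -0.54 ± 0.36 SE, adjusted p = 0.488). H460 had 42.8 and 49.2 CPM in normoxia and 45.6 and 43.9 CPM in hypoxia, where the groups overlapped. The RKO effect was above that in A549 by 2.3 ± 0.28 SE, adjusted p = 0.000503 and above that in H460 by 1.81 ± 0.25 SE, adjusted p = 0.000167. Even so, the hypoxic RKO level remained below that of either H460 group. SLC25A14 (UCP5) and SLC25A30 were called in no line, and had log2 fold changes of 0.54 and -0.36 in H460. The effect on SLC25A14 differed between RKO and H460 by -0.85 ± 0.25 SE, adjusted p = 0.0183. SLC25A43, SLC25A46 and SLC25A53, whose substrates are not settled, were also called in no line where they were tested, and ranged from -0.54 to 0.77. SLC25A46 acts on mitochondrial shape at the outer membrane.

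The average of the hypoxia effect over the lines, from the fit of all 12 libraries, called 5 members higher and 8 lower of 42 (14.8% and 11.5% of all genes), or 5 and 14 with the library size alone (10.8% and 17.1%). Higher were SLC25A42 (1.37 on the log2 scale), SLC25A37 (0.98), SLC25A29 (0.84), SLC25A36 (0.77) and SLC25A41, whose value of 1.5 includes H460 libraries with 0 to 2 reads. Lower were, among others, SLC25A10 (-1.1), SLC25A33 (-1.04), SLC25A13 (-0.97), SLC25A25 (-0.80), SLC25A12 (-0.77), SLC25A32 (-0.70) and SLC25A15 (-0.65). The same fit tested whether the effect differed between lines. It did for 9 of 42 members in the pair RKO and A549 (14.6% of all genes), for 20 in RKO and H460 (37.6%) and for 16 in the pair A549 and H460 (36%), and for 26 between at least some lines (48.8%). With the replicate number as a block the first count was 17 (26.9% of all genes). Leaving out any 1 H460 library brought the A549 and H460 count to between 8 and 10 (22.9 to 28.2%, with 26.7% and 25.3% without normoxia replicate 1 and 2), and without H460 normoxia replicate 1, normoxia replicate 2 or hypoxia replicate 1 the count over all lines was 15, 16 and 16 (38.2%, 36.8% and 34.4%). Without RKO normoxia replicate 1 the RKO and A549 count was 5 (6.72%).

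**Figure D4:**
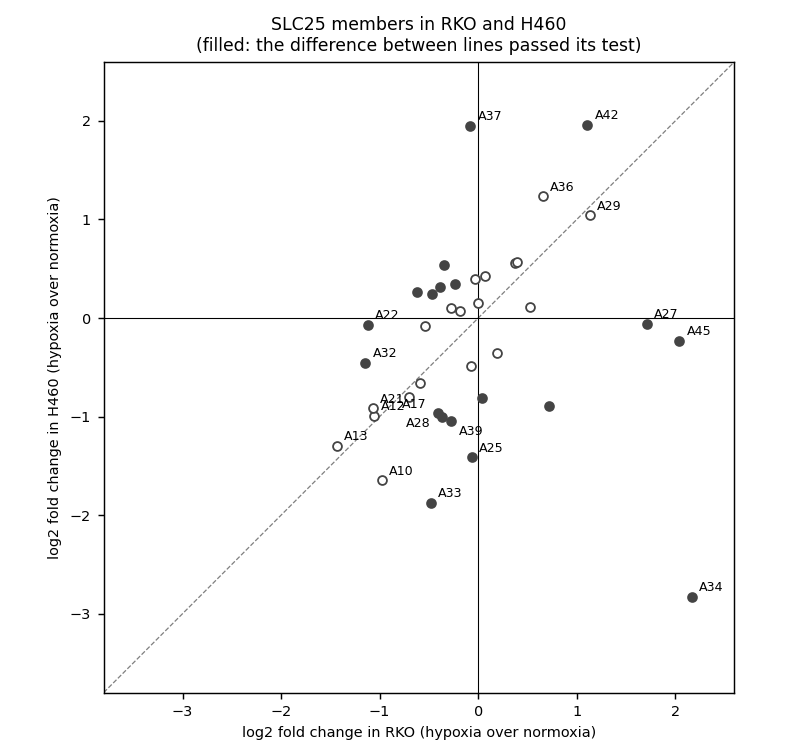
Log2 fold change after hypoxia in RKO (x axis) and H460 (y axis) for members tested in both, each point 1 gene, with equal change on the dashed line. Filled points passed the test of the difference between the lines, and SLC25A34, SLC25A37, SLC25A27 and SLC25A45 lie farthest from the dashed line among the points drawn, whereas SLC25A29, SLC25A12 and SLC25A13 lie near it.

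Before hypoxia the lines already differed in their carriers. By RPKM, which corrects for gene length, SLC25A5 came first and SLC25A3 second in every group, with normoxic means of 355 ± 19 and 292 ± 13.4 (SD, n = 2) in RKO. The place of SLC25A6 in this order is unknown, since its level could not be read. In A549 they were 396 ± 7.11 and 249 ± 9.87, and in H460 493 ± 20.6 and 299.8 ± 3.66. The ranges of mean ± SD of SLC25A5 and SLC25A3 did not overlap within a line, and SLC25A39 followed with 208 ± 16, 126 ± 14.4 and 103 ± 1.84. In hypoxic H460 SLC25A37 (219 ± 17.3) took the third place and SLC25A39 (39.2 ± 0.954) the seventh. RPKM was scaled by library total alone. The summed CPM of the members went from between 2723 and 2775 in normoxic to between 3372 and 3528 in hypoxic H460, while their summed RPKM went from between 1430.1 and 1449.6 to between 1403.7 and 1405.9, so the direction of that sum turned with the scaling.

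Normoxic levels were compared between lines in the fit of all libraries, with the same thresholds. RKO was above A549 in 17 members and below in 8 (26% and 34.1% of all genes), and above H460 in 15 and below in 11 (27.2% and 34.7%). A549 was above H460 in 7 members and below in 14 (26.9% and 25.2%). SLC25A27 showed the widest gap among members above the filter in each line, the log2 difference A549 minus H460 being -4.58 ± 0.20 SE, adjusted p = 1.64e-10, with RKO between them. SLC25A45 was lowest in RKO, with a log2 difference from A549 of -2.27 ± 0.23 SE, adjusted p = 8.34e-07. SLC25A35 was likewise lowest in RKO, with a log2 difference from H460 of -2.31 ± 0.24 SE, adjusted p = 7.05e-07. RKO had the highest normoxic levels of SLC25A25, SLC25A33, SLC25A32, SLC25A10 and SLC25A4, among others, each of these called above both other lines. Their log2 differences from H460 were 2.08 ± 0.17 SE, adjusted p = 8.1e-08 for SLC25A32 and 1.94 ± 0.22 SE, adjusted p = 2.37e-06 for SLC25A10. H460 was highest in SLC25A37 and SLC25A29, with a log2 difference RKO minus H460 of -1.13 ± 0.13 SE, adjusted p = 2.82e-06 in the latter. It was lowest in SLC25A42, where RKO minus H460 was 1.58 ± 0.25 SE, adjusted p = 5.36e-05.

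**Figure D5:**
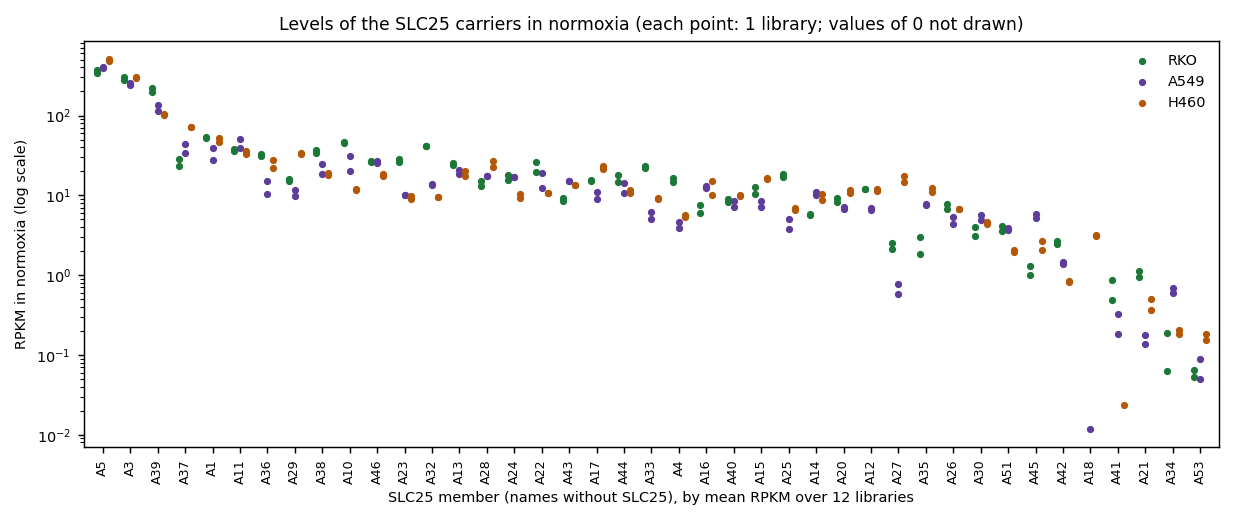
RPKM in normoxia (y axis, log scale) of SLC25 members tested in at least 1 line, ordered by their mean over 12 libraries, with a point per library coloured by line. SLC25A5, SLC25A3 and SLC25A39 lead in each line, and SLC25A27, SLC25A35, SLC25A45 and SLC25A18 are spread widely between lines.

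Carriers reach the inner membrane through the TOM complex of the outer membrane, the small TIM chaperones of the intermembrane space and the TIM22 complex. Of 16 genes listed for this route, 10 fell and 0 rose in RKO (15.1% and 18.8% of all genes), and 7 fell and 1 rose in H460 (27.3% and 24.6%). In A549 0 were called, where 0.456% of all genes fell and 2.22% rose. An unadjusted p under 0.05 was reached there by 3 genes toward lower and 0 toward higher levels. In RKO, 14 genes toward lower and 0 toward higher levels had an unadjusted p under 0.05. H460 was mixed, with 10 toward lower and 5 toward higher levels. RKO had a median log2 fold change of -0.81 over the list, A549 of -0.30 and H460 of -0.54, beside 0.01, -0.01 and -0.04 for all tested genes. TOMM40, the channel of the outer membrane, went from 193 and 205 CPM to 73.5 and 82.4 CPM in RKO (log2 fold change -1.41 ± 0.15 SE, adjusted p = 0.000168) and from 80.3 and 78.8 CPM to 20.6 and 19.9 CPM in H460 (log2 fold change -1.99 ± 0.09 SE, adjusted p = 7.28e-09). TIMM10, a chaperone that escorts carriers between the membranes, fell in RKO (log2 fold change -1.68 ± 0.22 SE, adjusted p = 0.000373) and in H460 (log2 fold change -1.79 ± 0.10 SE, adjusted p = 2.99e-08), and TIMM10B was the 1 gene that rose, in H460 (log2 fold change 1.0 ± 0.10 SE, adjusted p = 2.58e-06). The carrier-specific receptor TOM70 (listed as TOMM70A) fell in RKO (log2 fold change -0.83 ± 0.16 SE, adjusted p = 0.00243) and had 0.21 in H460.

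Among 5 carriers of the family under other symbols (UCP1, UCP2, UCP3, MTCH1 and MTCH2), 4 were tested per line, UCP1 being under the filter throughout. In H460 UCP2 and UCP3, which carry the uncoupling name, fell, and MTCH1, an outer membrane member, rose (log2 fold change 0.59 ± 0.15 SE, adjusted p = 0.00426). UCP2 went from 2.62 and 2.52 CPM to 0.971 and 0.973 CPM (log2 fold change -1.41 ± 0.26 SE, adjusted p = 0.000447). UCP3 held 158 reads in the normoxic and 6 in the hypoxic libraries, a 22.2-fold lower level with an exact 95% counting interval of 9.96 to 61.3, and the quasi-likelihood test gave adjusted p = 2.89e-06. None was called in RKO or A549, where 1 gene toward higher and 1 toward lower levels had an unadjusted p under 0.05, respectively. Of 17 other transport proteins of the mitochondrial membranes, 2 rose and 5 fell in RKO (18.8% and 15.1% of all genes), and 5 rose and 8 fell in H460 (24.6% and 27.3%). In A549 1 rose and 0 fell (2.22% and 0.456%), with 1 gene toward lower levels at an unadjusted p under 0.05. SFXN3, a sideroflexin, rose in each line, with log2 fold changes of 1.04, 1.0 and 2.74 in RKO, A549 and H460. LETM1, a cation exchanger of the inner membrane, fell in RKO (log2 fold change -0.92 ± 0.18 SE, adjusted p = 0.00291) and H460 (log2 fold change -2.2 ± 0.10 SE, adjusted p = 5.41e-09). VDAC1, a pore of the outer membrane, fell in RKO (log2 fold change -0.61 ± 0.16 SE, adjusted p = 0.0108) and rose in H460 (log2 fold change 0.64 ± 0.10 SE, adjusted p = 9.36e-05). This rise and that of MTCH1 were near the fold threshold (log2 0.585), and their calls with the library size alone were not tested. That scaling moved the median of all H460 genes by -0.35 on the log2 scale. MPC1, a subunit of the mitochondrial pyruvate carrier, fell in H460 (log2 fold change -0.89 ± 0.13 SE, adjusted p = 6.81e-05), and its partner MPC2 was called in no line (0.37, 0.32 and 0.18 in RKO, A549 and H460).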

How the data were processed

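Poly(A)+ RNA of 12 cultures was sequenced from a single end with a strand-specific kit. According to the methods and the submitters' processing notes, the authors trimmed low-quality bases, aligned to GRCh37/hg19 with TopHat2 2.0.13, removed reads with low mapping quality, marked duplicates with Picard 1.129 and counted reads per gene with HTSeq 0.6.1 for the reverse strand. The authors deposited whole read counts, which were tested here, and RPKM values, which equal the count scaled by gene length and by the library's total and served for levels, shares within sets and as an alternative unit. Gene coordinates are those deposited for GRCh37, written 1-based, and 0 columns of other samples were present.

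Each line was fitted on its 4 libraries under R 4.3.3, using TMM factors and the quasi-likelihood test of edgeR 4.0.16, over all genes above 0.5 CPM in at least 2 libraries, with Benjamini-Hochberg adjustment over all genes tested. Adjusted p values are edgeR values, and n is 2 per group. The labels give a replicate number only, and the study describes its RNA-seq replicates as independent biological duplicates. The SE is the log2 fold change divided by the root of F. Averages, differences between lines and normoxic levels came from 1 edgeR fit of the 12 libraries, whose TMM factors also scaled the printed CPM. The fits were tested on simulated data. Total counts of 27350424 to 41757584 per library set the precision, and floors of 3 reads and exact intervals cover counting error only. Replicates of a group differed by more than sampling noise, the chi-square over its degrees of freedom being 10.1 to 75.9.

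Members, gene lists and tests were chosen with earlier results of these data known, so no list is independent support. The members named with values were those called the same way in at least 2 lines or in opposite directions, the 3 highest and 3 lowest called per line with at least 100 counts on average, the 3 with the lowest p per pair of lines for a difference in effect, the 3 most abundant, and the extremes of each role group. The values of 1 member are not reported here, and counts over the members include it. Others, such as SLC25A17, SLC25A20, SLC25A26, SLC25A28 and SLC25A40, were named after their values were seen. Same-numbered replicates deviated together within lines (correlation over genes 0.36 in RKO, 0.37 in A549 and 0.14 in H460). The main fits did not use the replicate number, so their calls and adjusted p values leave this pairing out. The blocked fit took the number to pair the libraries and is given where it changed a call. Alternatives were DESeq2 1.42.0, size factors, library size alone, filters, limma 3.58.1 on log2(RPKM + 0.1 or 1), other thresholds, and leaving out each library.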

Additional observations from a re-analysis of the deposited data

Results flagged for a closer look

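The hypoxia effect differed between lines for 26 members by the test over all lines in the joint edgeR fit, beside 48.8% of all genes, and the value given for each one named is that of the pair of lines with the widest log2 difference. Of the 25 differences named, only 10 kept their side of the threshold under all 18 alternative settings of that fit. For RKO minus H460 the difference was above 0 in SLC25A34 (5.05, from few reads), SLC25A35 (1.66), SLC25A33 (1.43), SLC25A25 (1.39), SLC25A20 (0.90), SLC25A39 (0.81) and SLC25A17 (0.60). It was below 0 in SLC25A37 (-1.99), SLC25A22 (-1.01), SLC25A14 (-0.85), SLC25A26 (-0.84), SLC25A3 (-0.66), SLC25A38 (-0.66) and SLC25A32 (-0.65).

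For RKO minus A549 the widest differences were those of SLC25A45 (2.67), SLC25A27 (2.30), SLC25A29 (0.92), SLC25A21 (-1.36), SLC25A13 (-1.12) and SLC25A12 (-0.67). The pair itself missed the threshold in SLC25A21 (adjusted p = 0.109), and the blocked fit passed it (adjusted p = 0.0921). For A549 minus H460 they were SLC25A42 (-1.01), SLC25A36 (-0.90), SLC25A11 (-0.62), SLC25A10 (0.89) and SLC25A28 (0.84). SLC25A11, SLC25A14, SLC25A38 and SLC25A3 differed between lines although none of them was called within a line.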

How the results depend on the processing

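Of 63 fold changes of 21 named members, 36 kept their side of the call under every alternative run in their line (at most 17), 14 lost a call under at least 1 and 13 gained one. No called value changed sign, and 9 values that were not called changed sign under some alternative. Counts of members called stayed within 1.5 times in 287 of 318 comparisons. Most counts in this section have no share of all genes beside them. They describe the settings and are not a result about the carriers. In A549 the count higher was 2 with DESeq2, 1 with no filter on low counts, 2 in the joint fit and 3 with the replicate block, and the count lower was 0 with library size only, with each of the limma fits on log2(RPKM) and at adjusted p under 0.05, 4 in the joint fit and 6 with the replicate block. In RKO the count lower was 5 with limma on log2(RPKM + 1) and 5 at a fold change over 2. In H460 it was 7 at a fold change over 2, and with no minimum fold change the count higher was 13. The average effect called 14 members lower with library size only. RKO minus A549 passed for 17 members with the replicate block and 5 at adjusted p under 0.05. Apart from this count and the A549 counts above, the block moved no count past 1.5 times.

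Leaving out 1 library gave 0 to 2 members higher and 0 to 6 lower in A549, 7 to 8 and 7 to 11 in RKO, and 5 to 6 and 15 to 16 in H460. The average gave 5 to 6 and 8 to 11, and differences between lines passed for 5 to 9 members (RKO minus A549), 14 to 23 (RKO minus H460), 8 to 17 (A549 minus H460) and 15 to 26 (any). Normoxic counts ran from 13 to 20 and 7 to 8 (RKO minus A549), 15 to 16 and 11 to 14 (RKO minus H460), and 7 to 8 and 13 to 15 (A549 minus H460). Library size only moved the median of all genes on the log2 scale (RKO 0.08, A549 -0.09, H460 -0.35). The causes were not tested, other than fewer samples or another threshold where the setting itself is that. Depth limits SLC25A21, SLC25A34, SLC25A41, SLC25A53 and UCP3 in H460, which were read at a few CPM or less.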
